A study of Caenorhabditis elegans with 12 samples.

Results

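The genes described here are chaperone genes of *C. elegans*, chosen by name from the deposited table of TPM (a transcript level scaled by gene length and library). Constitutive expression was not a criterion, and chaperones with other names are not in the set. All genes named *hsp-*, *dnj-* or *cct-* were taken, 60 in all, and the 6 *hsp-16* genes and *hsp-70*, which are known for their induction by heat, were left out. This gave 53 of the 46904 genes in the table, namely 16 *hsp-*, 29 *dnj-* and 8 *cct-* genes. Libraries were made from whole worms, at least 500 a sample and fed RNAi bacteria, in 4 groups of 3. N2 *rpia-1* (RNAi) Day 0 worms, of the wild type, received *rpia-1* RNAi from day 0 of adulthood, and N2 EV worms received the empty vector. TU3401 *rpia-1* (RNAi) WL worms received *rpia-1* RNAi for their whole life, and TU3401 EV worms received the empty vector. TU3401 carries the transgene *uIs69*, with *sid-1* driven by the *unc-119* promoter to enhance RNAi in neurons and a pharyngeal mCherry marker driven by *myo-2*, and both TU3401 groups carry it. By the sample labels the N2 worms were taken on day 5 and the TU3401 worms on day 0. The library names of the TU3401 samples carry L4, the name of the last larval stage, whereas the methods describe a harvest on day 5 of adulthood for all samples. Strain, onset of the knockdown and age by the labels differ together and cannot be told apart.

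HSP70 proteins bind exposed stretches of unfolded proteins in a cycle driven by ATP. DnaJ proteins, also called HSP40, bring them clients and start ATP hydrolysis, and HSP110 proteins exchange the nucleotide. HSP90 acts later on clients such as kinases and receptors, the CCT ring of 8 different subunits folds actin and tubulin in its cavity, and small heat shock proteins hold unfolded proteins without ATP. The ER and the mitochondria have their own HSP70 proteins, and in *C. elegans* the genes *hsp-4*, *hsp-6* and *hsp-60* are used as reporters of the unfolded protein responses of these compartments.

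The values of each library summed to 1025899 to 1036143 TPM. No read counts were used, and the depth in reads is unknown. The most frequent low value of the piRNA genes, if it marks an equal read number throughout, puts each library at 0.786 to 1.20 times the median depth. The targeted gene, *rpia-1*, had 27.5, 32.8 and 30.2 TPM in N2 *rpia-1* (RNAi) Day 0, against 128, 115 and 120 TPM in N2 EV (log2 change −1.97, adjusted p = 0.00053 by limma). It had 82.0, 88.5 and 106 TPM in TU3401 *rpia-1* (RNAi) WL, against 107, 107 and 115 TPM in TU3401 EV, which did not overlap but did not pass the test (−0.26, adjusted p = 1). N2 *rpia-1* (RNAi) Day 0 replicate 1 had 22388 genes above 0, against 17777 to 19135 in the other N2 libraries.

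Chaperone transcripts made 0.897% to 1.16% of the TPM of every library. The 53 genes summed to 11701 ± 292 TPM (SD, n = 3) in N2 *rpia-1* (RNAi) Day 0 against 11812 ± 140 TPM in N2 EV. They summed to 10338 ± 628 TPM in TU3401 *rpia-1* (RNAi) WL, against 9949 ± 632 TPM in TU3401 EV. The cytosolic HSP70 gene *hsp-1*, with a mean of 2128 TPM over the 12 libraries, and the cytosolic HSP90 gene *hsp-90*, with 1686 TPM, were the highest, and both together made 33.5% to 35.8% of the summed TPM in each library. The mitochondrial HSP70 gene *hsp-6* followed with 531 TPM, the ER HSP70 gene *hsp-3* with 416 TPM and the mitochondrial chaperonin gene *hsp-60* with 391 TPM. At the low end stood the small heat shock protein genes *hsp-12.1*, *hsp-12.3* and *hsp-12.6*, with means of 3.27, 1.91 and 1.77 TPM. The gene *hsp-2*, annotated as a pseudogene, had 0.152 to 1.23 TPM and was below the minimum of every test.

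Among the 29 DnaJ genes the means over all libraries lay between 13.1 and 339 TPM. The most abundant was *dnj-19*, which with *dnj-12*, at 300.1 TPM, belongs to the class A DnaJ proteins that pair with cytosolic HSP70. Next were *dnj-20*, the homologue of the ER protein DNAJB11, with 232 TPM, *dnj-5* with 218 TPM, the class B gene *dnj-13* with 214 TPM, and *dnj-11*, a homologue of the ribosome-associated DNAJC2, with 207 TPM. The 8 CCT genes encode subunits that stand in equal number in the ring, and their transcripts lay within 1.97-fold to 2.49-fold of each other in each library. The lowest was *cct-3* in all 12 libraries, and the highest was *cct-5* in the 6 TU3401 libraries and *cct-6* in 5 of the 6 N2 libraries.

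**Figure D1:**
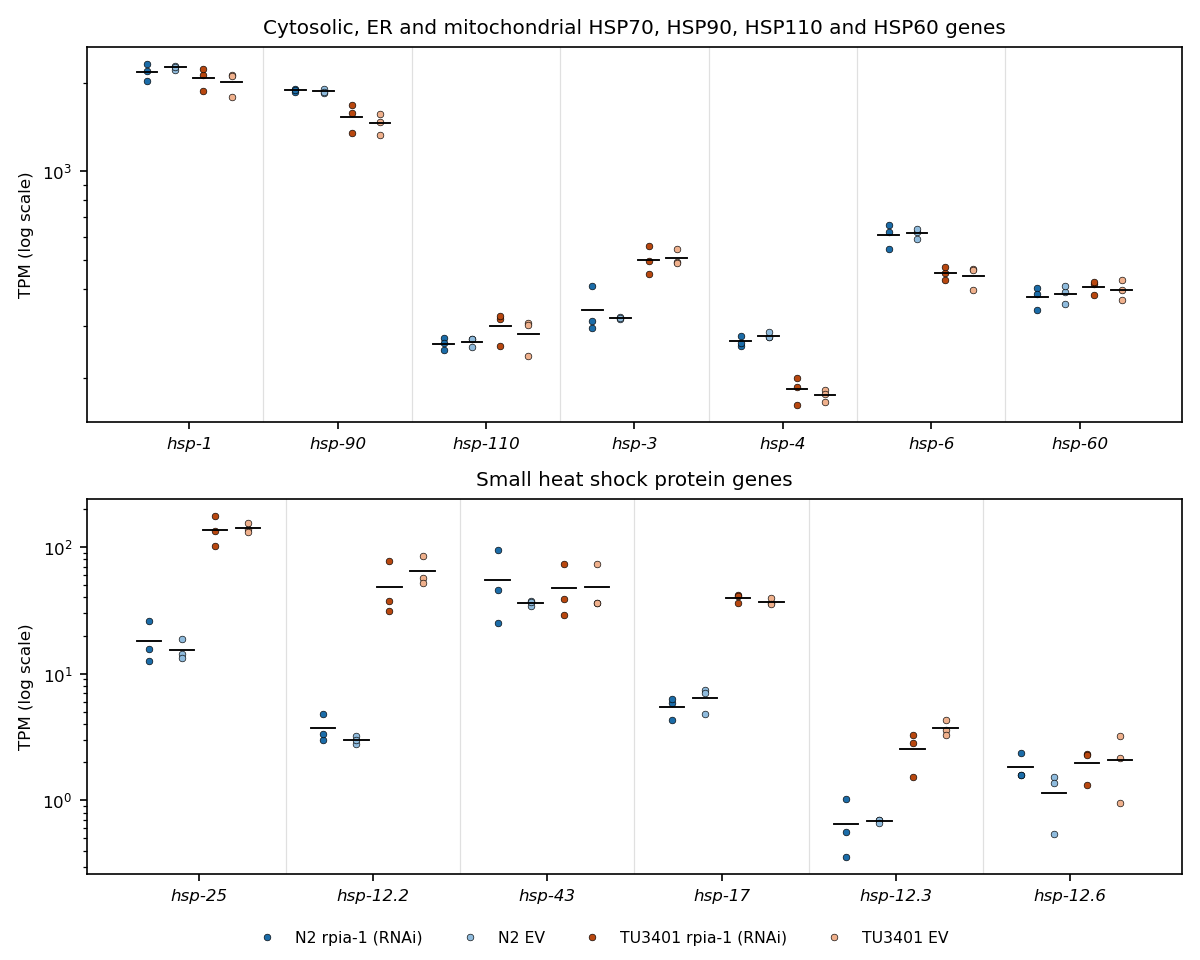
TPM (log scale) of the cytosolic, ER and mitochondrial chaperone genes (top) and of 6 small heat shock protein genes (bottom) in each library. Points are the 3 libraries of a group, colours mark the groups and lines are group means. The small heat shock protein genes *hsp-25*, *hsp-12.2* and *hsp-17* lie far lower in the N2 groups than in the TU3401 groups, whereas RNAi and EV overlap within each strain for most genes.

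No chaperone gene passed the test when *rpia-1* was knocked down in adult N2 worms. With limma on log2(TPM + 1) and Benjamini-Hochberg adjustment over 10626 genes, only *rpia-1* itself was called, which is 0.00941% of the genes tested. Of the chaperone genes, 50 reached the minimum mean of 1 TPM, all but *hsp-2*, *hsp-12.1* and *hsp-12.3*. Of these, 0 were called and 0 had an unadjusted p under 0.05, against 1.66% of all genes. The estimates were positive for 17 and negative for 33, with a median log2 change of −0.02, against −0.0017 for all genes tested.

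The abundant cytosolic genes were tightly measured. *hsp-90* had 1864, 1901 and 1892 TPM in N2 *rpia-1* (RNAi) Day 0, against 1847, 1898 and 1860 TPM in N2 EV, a log2 change of 0.01 (95% interval −0.09 to 0.12). *hsp-1* had 2033, 2313 and 2199 TPM in the knockdown, against 2286, 2208 and 2264 TPM in N2 EV (log2 change −0.05, interval −0.20 to 0.10). *hsp-110* gave a log2 change of −0.02 (interval −0.14 to 0.10). In all of these the groups overlapped.

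The compartment genes gave like values. The stress-inducible ER gene *hsp-4* had 256, 277 and 262 TPM in N2 *rpia-1* (RNAi) Day 0, against 274, 274 and 284 TPM in N2 EV, a log2 change of −0.07 (interval −0.17 to 0.04). Its paralog *hsp-3* had 410, 295 and 310 TPM in the knockdown, against 315, 322 and 318 TPM in N2 EV. The value of 410 TPM stands alone, and it belongs to replicate 1. The log2 change was −0.02 (interval −0.20 to 0.16) for *hsp-6* and −0.04 (interval −0.23 to 0.15) for *hsp-60*. All 8 CCT genes lay between −0.05 and 0.03, with all intervals between −0.16 and 0.17.

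Of the 29 DnaJ genes, 9 estimates were positive and 20 negative, from −0.14 to 0.20. The smallest p of any chaperone gene was that of *dnj-1* (unadjusted p = 0.0732, adjusted p = 0.9999 by limma), with 96.4, 101 and 105 TPM in N2 *rpia-1* (RNAi) Day 0, against 109, 107 and 108 TPM in N2 EV. Its groups did not overlap, and neither did those of *hsp-12.6*, with 2.37, 1.57 and 1.58 TPM in the knockdown, against 1.52, 1.38 and 0.542 TPM in N2 EV. Among all genes tested, 5.11% were separated in this way, so 2 of 50 chaperone genes is no more than the background.

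The 95% interval stayed within 1.5-fold in both directions for 43 of the 50 chaperone genes, against 63.4% of all genes tested. The 7 with wider intervals were 5 small heat shock protein genes, *hsp-12.2*, *hsp-12.6*, *hsp-17*, *hsp-25* and *hsp-43*, and the low DnaJ genes *dnj-24* and *dnj-27*, of which *dnj-24* was named after its values were seen. In several of them replicate 1 of the knockdown stood apart. *hsp-43* had 94.8 TPM in replicate 1 of N2 *rpia-1* (RNAi) Day 0, 24.9 and 45.8 TPM in the other knockdown libraries and 34.2 to 37.5 TPM in N2 EV. *hsp-25*, whose product sits at the dense bodies of body wall muscle, had 26.1 TPM in replicate 1, 12.7 and 15.8 TPM in the other knockdown libraries and 13.2 to 18.6 TPM in N2 EV.

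In the same library the ER DnaJ gene *dnj-27* had 26.9 TPM, against 15.7 to 18.5 TPM in the other N2 libraries, and the summed TPM of the collagen genes was 1406, against 652 to 884 in the others. The summed TPM of 7 body wall muscle genes was 126 there, against 86.9 to 105. The part of these differences in the small heat shock protein values was not tested. Without this library the log2 change of *dnj-27* was −0.0011, and 0 chaperone genes were called while 33 genes were called in all.

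In TU3401, the neuron-enhanced knockdown over the whole life likewise gave no chaperone call, and *rpia-1* itself was not called. The RNA came from whole worms, so a change in neurons alone was not tested. Of 13921 genes tested by limma, 0 were called (0%), with 1.18% at an unadjusted p under 0.05, and of the 52 chaperone genes tested, all but *hsp-2*, 0 were called and 0 had an unadjusted p under 0.05. The estimates leaned upward, with 43 positive and 9 negative and a median log2 change of 0.05, against 51.3% positive and a median of 0.0041 among all genes. All 8 CCT genes, 27 of 29 DnaJ genes and all 3 cytosolic genes had positive estimates.

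**Figure D2:**
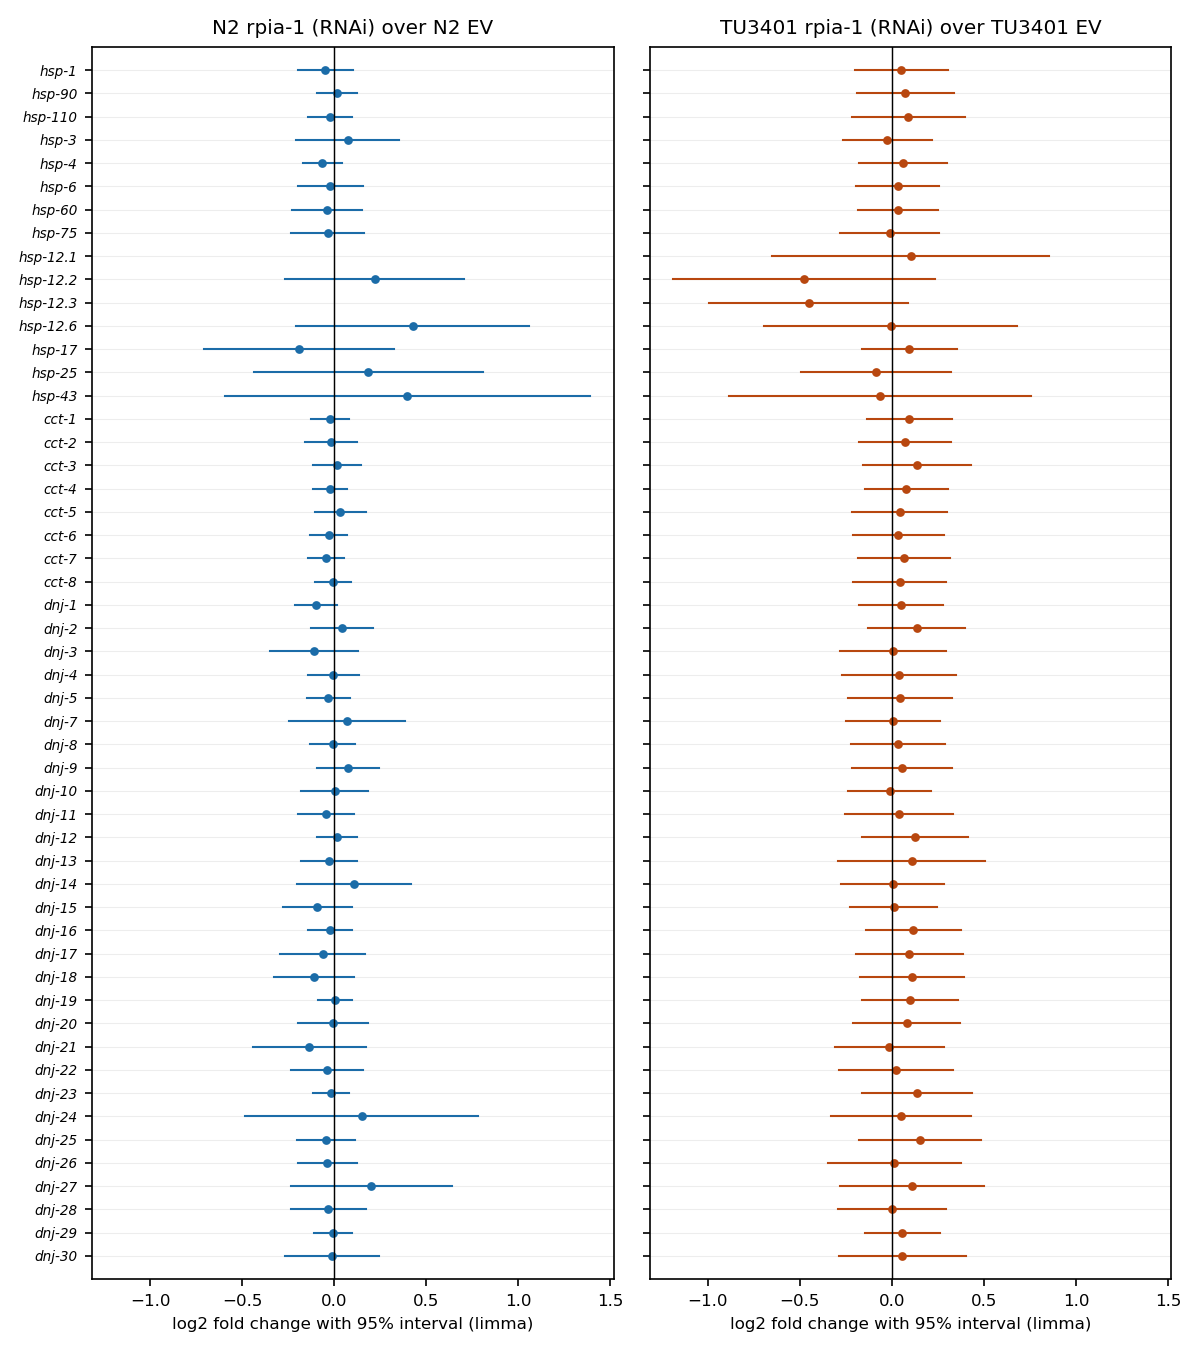
Log2 fold change of each chaperone gene with its 95% interval (limma) in N2 *rpia-1* (RNAi) Day 0 over N2 EV (left) and TU3401 *rpia-1* (RNAi) WL over TU3401 EV (right), grouped by role from the cytosolic genes at the top to the DnaJ genes at the bottom. Every interval crosses 0, and the widest belong to small heat shock protein genes, whereas 43 of 50 in N2 and 47 of 52 in TU3401 lie within 1.5-fold.

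These positive estimates were small against the spread between the libraries of a group. *hsp-1* had 2128, 2220 and 1879 TPM in TU3401 *rpia-1* (RNAi) WL, against 2118, 2100 and 1793 TPM in TU3401 EV (log2 change 0.05, interval −0.20 to 0.31). *hsp-90* had 1582, 1674 and 1348 TPM in the knockdown, against 1567, 1474 and 1327 TPM in TU3401 EV (0.07, interval −0.19 to 0.34). In both genes, replicate 3 was the lowest library of each group. The same held for all 8 CCT genes, for *hsp-110* and *hsp-6*, and for *dnj-12*, *dnj-13* and *dnj-19*.

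In TU3401, libraries with the same replicate number deviated together in these genes. Across the 52 chaperone genes, the deviations from the group means correlated at 0.60, 0.76 and 0.86 between same-numbered knockdown and EV libraries. Across all genes tested these values were 0.05, 0.44 and 0.42. In N2 they were −0.07, 0.07 and 0.06 across the chaperone genes. Between the knockdown groups of N2 and TU3401 they were −0.23, 0.76 and −0.54, so a high value alone does not mark a pair. The labels do not say that a number marks a shared batch. However, the library names carry the same non-consecutive numbers in the knockdown and EV groups of each strain. In the TU3401 knockdown, 16 of 52 chaperone genes exceeded the EV library of the same number in all 3 pairs, against 11.5% of all genes. In all 3 pairs 2 were lower, against 9.05%. The 16 included *hsp-1*, *hsp-90*, *hsp-110* and 5 of the 8 CCT genes, and the 2 were *hsp-12.2* and *hsp-12.3*. In N2 these counts were 4 and 1 of 50, against 5.81% and 6.94% of all genes. With the replicate number as a block, 0 chaperone genes were called in TU3401 (adjusted p of 0.998 or more by limma), and *hsp-12.2* (−0.48, interval −0.77 to −0.18) and *cct-3* (0.14, interval 0.0013 to 0.27) had an unadjusted p under 0.05, against 2.55% of all genes. The block narrowed the interval of *hsp-1* to −0.14 to 0.24 and that of *hsp-90* to −0.12 to 0.26.

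Relative to the TU3401 EV mean, the median log2 value of the 52 genes was 0.06, 0.15 and −0.05 in TU3401 *rpia-1* (RNAi) WL replicates 1, 2 and 3, and 0.03, 0.07 and −0.11 in TU3401 EV replicates 1, 2 and 3. The collagen genes went the other way, with a summed TPM of 27721, 18558 and 48753 in the knockdown, against 29256, 26217 and 36371 in TU3401 EV, and their part in the chaperone values was not tested. Without replicate 3 of both groups, a choice made after the data were seen, the median log2 change was 0.04. Without TU3401 EV replicate 3 alone it was 0.0039, and without TU3401 *rpia-1* (RNAi) WL replicate 2 alone it was 0.02.

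Across these libraries the ER gene *hsp-3* ran opposite to the cytosolic genes. *hsp-3* was highest in replicate 3, with 496, 449 and 558 TPM in TU3401 *rpia-1* (RNAi) WL, against 493, 487 and 545 TPM in TU3401 EV. *hsp-4* was lowest there, with 199, 186 and 161 TPM in the knockdown, against 182, 176 and 165 TPM in TU3401 EV. Neither passed the test between knockdown and EV (log2 change −0.02, interval −0.27 to 0.22, and 0.06, interval −0.18 to 0.30), and the mitochondrial genes *hsp-6* and *hsp-60* both gave 0.03.

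The smallest p values belonged to small heat shock protein genes. *hsp-12.3* had 3.28, 1.52 and 2.83 TPM in TU3401 *rpia-1* (RNAi) WL, against 3.62, 3.29 and 4.34 TPM in TU3401 EV, which did not overlap by a narrow margin (unadjusted p = 0.0910, adjusted p = 1 by limma). It was the only chaperone gene of 52 with separated groups, against 3.38% of all genes. *hsp-12.2* had 37.6, 31.4 and 76.9 TPM in the knockdown, against 57.4, 51.6 and 84.2 TPM in TU3401 EV (log2 change −0.48, interval −1.19 to 0.24). *hsp-43* had 38.6, 28.9 and 73.6 TPM in the knockdown, against 36.0, 35.8 and 72.9 TPM in TU3401 EV, so that replicate 3 was about as high in both groups. The intervals of 47 genes stayed within 1.5-fold, and the other 5 were the small heat shock protein genes *hsp-12.1*, *hsp-12.2*, *hsp-12.3*, *hsp-12.6* and *hsp-43*.

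The knockdown changes of the strains were then compared. In a fit of all 12 libraries, 1 of 13383 genes (0.00747%) differed between the N2 and TU3401 knockdown changes, *rpia-1* itself, and 0 of 52 chaperone genes did. The N2 change minus the TU3401 change was negative for 40 chaperone genes and positive for 12, with a median of −0.07, against −0.0090 for all genes. Without TU3401 EV replicate 3 this median was 0.0031, and without TU3401 *rpia-1* (RNAi) WL replicate 2 it was −0.03. The largest estimates were those of the small heat shock protein genes *hsp-12.2* (0.69, interval −0.19 to 1.58), *hsp-43* (0.46, interval −0.89 to 1.81) and *hsp-12.6* (0.43, interval −0.46 to 1.33), which are also among the least precise.

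Genes that work with the chaperones were likewise not called. In both knockdown comparisons 0 were called by limma, and 0 had an unadjusted p under 0.05, of 6 prefoldin genes, which pass unfolded actin and tubulin to CCT, of 15 genes for HSF-1 and the cochaperones of HSP70 and HSP90, of 14 genes of ER folding and the ER stress response, and of 9 genes of the mitochondrial stress response. The heat shock factor gene *hsf-1*, whose values were looked up after the results were seen, had 91.7, 113 and 107 TPM in N2 *rpia-1* (RNAi) Day 0, against 109, 103 and 107 TPM in N2 EV. It had 51.4, 59.9 and 49.4 TPM in TU3401 *rpia-1* (RNAi) WL, against 54.2, 57.1 and 41.8 TPM in TU3401 EV. In both strains the groups overlapped.

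The chaperone genes differed far more between the N2 and TU3401 worms than with the knockdown, and so did most other genes. In N2 EV against TU3401 EV, 44 of 52 chaperone genes were called, against 88.8% of 13348 genes tested. Of these, 35 were higher in N2, against 43.4% of all genes, and 9 were lower, against 45.4%. In N2 *rpia-1* (RNAi) Day 0 against TU3401 *rpia-1* (RNAi) WL, which uses the other 6 libraries, 40 of 52 were called, against 79.9% of 13412 genes. Here 31 were higher in N2, against 40.9% of all genes, and 9 were lower, against 39.0%. A total of 31 chaperone genes were higher and 9 lower in both comparisons, against 40.6% and 38.8% of 13114 genes. The 9 include *hsp-12.1* and *hsp-12.3*, which averaged below 1 TPM in both N2 groups and reached the minimum only through the TU3401 libraries. Both could be called only as lower in N2. Of the chaperone genes, 0 were called in opposite directions.

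Much of this split depended on the scale. When each library was centred on its median level, the log2 changes moved up by 0.69 in the EV comparison, giving 41 chaperone genes higher and 7 lower, with 7277 higher and 4578 lower among all genes. When each library was instead shifted by the median of its ratios to the mean library, they moved down by 0.70, giving 9 higher and 32 lower, against 24.8% higher and 59.5% lower among all genes. In the knockdown libraries, centring on the median level gave 38 higher and 6 lower, with 6819 higher and 4063 lower among 13412 genes. The shift by ratios gave 8 higher and 29 lower there, against 21.2% and 52.9% of all genes. The shift by ratios was chosen after the data were seen. Therefore, the direction of a gene is described as higher or lower only where it was called alike on all 3 scales in both comparisons. This held for 8 genes that were higher, against 20.7% of all genes tested throughout. It held for 6 that were lower, *hsp-12.1* among them, against 30.0%. The other chaperone genes changed their direction or call with the scale, and for several of these the ratio to another chaperone gene of the same library is given, which no scale can change.

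**Figure D3:**
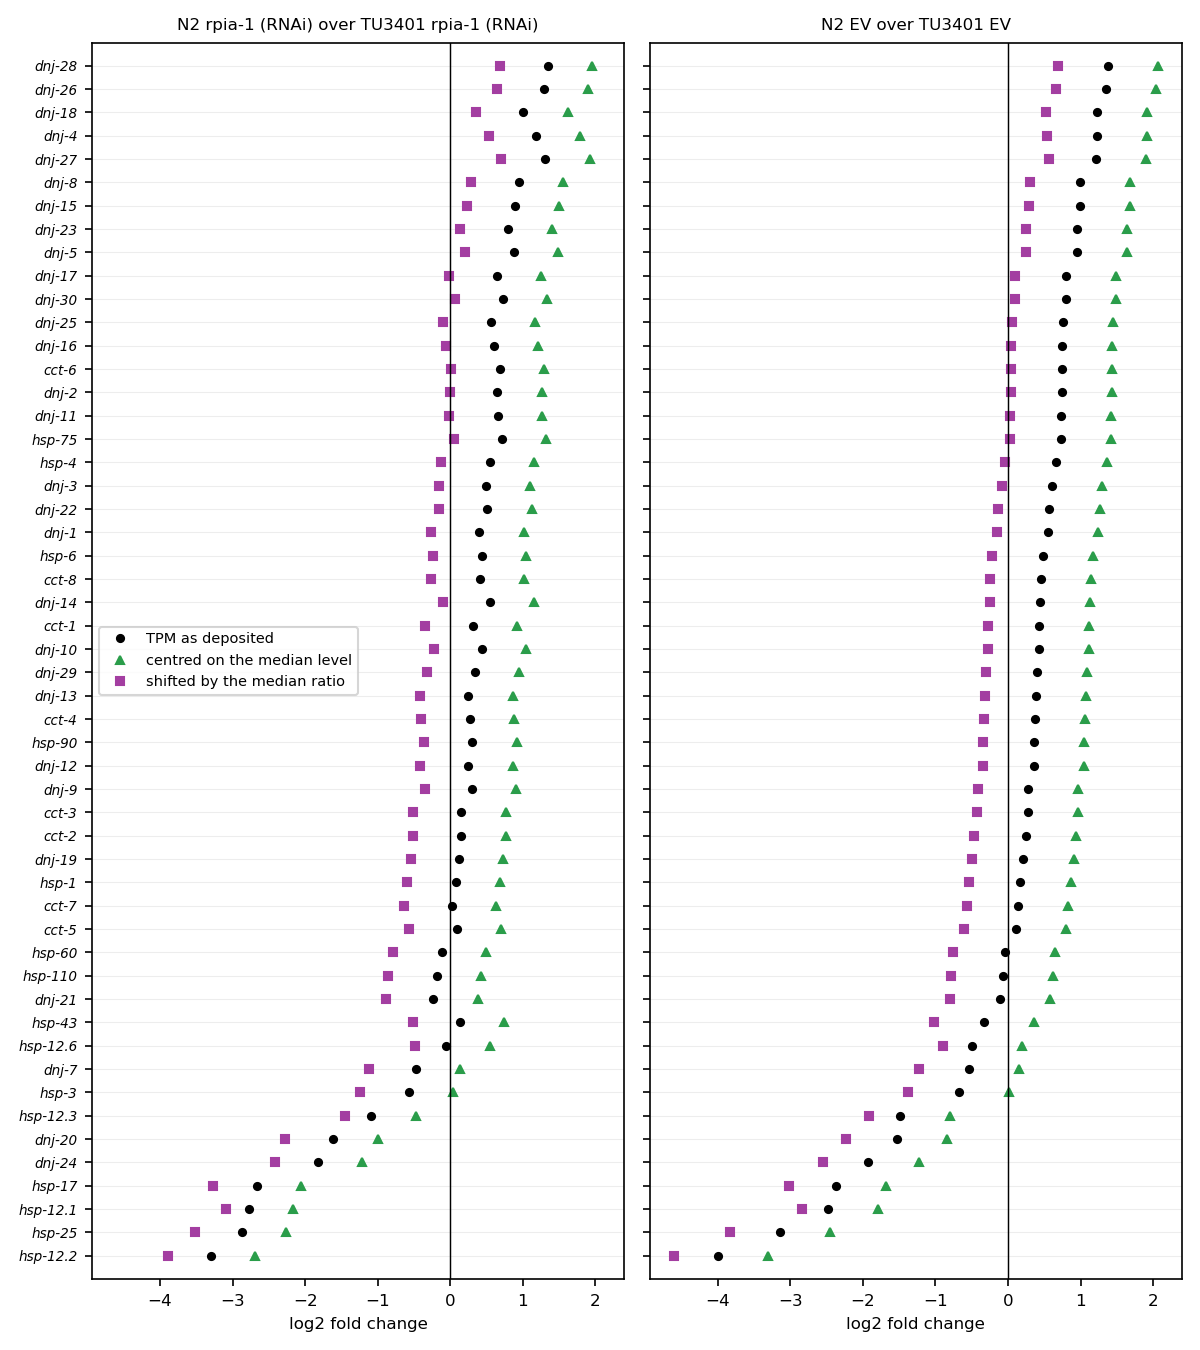
Log2 fold change of 52 chaperone genes in N2 over TU3401, between the *rpia-1* (RNAi) groups (left) and between the EV groups (right), as TPM (circles), with libraries centred on their median level (triangles) and with libraries shifted by their median ratio (squares). The scales shift the genes together, and 0 falls among the CCT, HSP and most DnaJ genes. Thus only 8 DnaJ genes near the top, *dnj-23* not among them, and 6 genes at the bottom were called in the same direction throughout.

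Of the 7 small heat shock protein genes, *hsp-12.1*, *hsp-12.2*, *hsp-17* and *hsp-25* were lower in N2 on all 3 scales. *hsp-12.1* reached the minimum mean of 1 TPM only through the TU3401 libraries, so it could be called only as lower in N2. *hsp-12.2* had 4.79, 3.01 and 3.35 TPM in N2 *rpia-1* (RNAi) Day 0, against 37.6, 31.4 and 76.9 TPM in TU3401 *rpia-1* (RNAi) WL, and 3.23, 2.80 and 2.98 TPM in N2 EV, against 57.4, 51.6 and 84.2 TPM in TU3401 EV. Its log2 change was −3.998 ± 0.17 (SE) between the EV groups (adjusted p = 4.95e-08 by limma) and −3.30 ± 0.33 between the knockdown groups. *hsp-25* had 26.1, 12.7 and 15.8 TPM in N2 *rpia-1* (RNAi) Day 0, against 133, 102 and 176 TPM in TU3401 *rpia-1* (RNAi) WL, and 14.2, 13.2 and 18.6 TPM in N2 EV, against 140, 133 and 155 TPM in TU3401 EV (−3.15 ± 0.13, adjusted p = 3.14e-08). In both genes every N2 library lay below every TU3401 library.

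*hsp-17* had 4.80, 7.39 and 7.04 TPM in N2 EV, against 35.9, 39.6 and 35.5 TPM in TU3401 EV, a log2 change of −2.38 ± 0.15. Of its exonic bases, 13.0% are shared with a gene on the opposite strand, *F52E1.14*, and whether reads were counted by strand is not given in the sources used here. *hsp-12.1* was near 0 in N2, with 0, 0.111 and 0.632 TPM in N2 EV, against 3.77, 4.68 and 10.6 TPM in TU3401 EV. Its log2 change of −2.48 ± 0.33 rests on log2(TPM + 1) and understates the difference of a gene this low.

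Other small heat shock protein genes were not called lower on every scale in both comparisons. *hsp-12.3* lies on chromosome IV at 9444791 to 9445507 and, like *hsp-12.1*, reached the minimum only through the TU3401 libraries. It was called lower in both comparisons as TPM (−1.49 and −1.09) and on the scale of ratios (−1.91 and −1.45). Centred on the median level, it was called lower between the EV groups (−0.80) but not in the knockdown libraries (−0.48, adjusted p = 0.0893 by limma). Its neighbour *hsp-12.6* lies on the same strand at 9446229 to 9447228 (positions from Ensembl WBcel235). As TPM, *hsp-12.6* was called in neither comparison, with 1.52, 1.38 and 0.542 TPM in N2 EV, against 0.948, 3.21 and 2.14 TPM in TU3401 EV. On the scale of ratios it was called lower between the EV groups (−0.90, adjusted p = 0.0288 by limma) but not between the knockdown groups. As TPM, *hsp-43* was not called either (−0.33, interval −0.87 to 0.21, between the EV groups), and without TU3401 EV replicate 3 its log2 change was 0.0049. On the scale of ratios *hsp-43* was called lower between the EV groups (−1.02, adjusted p = 0.011 by limma) but not between the knockdown groups.

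As TPM, markers of several tissues also differed between the strains. The summed TPM of 7 body wall muscle genes was 86.9 to 126 in N2 *rpia-1* (RNAi) Day 0, against 2586 to 3606 in TU3401 *rpia-1* (RNAi) WL, and 91.4 to 105 in N2 EV, against 3129 to 3631 in TU3401 EV. That of 7 intestinal genes was 261 to 337 against 5544 to 6437 between the knockdown groups and 386 to 395 against 5904 to 6258 between the EV groups. That of 10 germline genes was higher in N2 as TPM, with 7185 to 8706 against 4511 to 5529 between the knockdown groups and 8112 to 8578 against 3945 to 5168 between the EV groups. This direction was not tested on the other scales. The shift by ratios moved log2 changes down by 0.70 in the EV comparison and by 0.66 in the knockdown libraries. The major sperm protein genes, 35 in all, summed to 1.14 to 4.41 against 6094 to 8015 between the knockdown groups and 0.638 to 13.5 against 6790 to 9594 between the EV groups, and 13 of them were at 0 in N2 *rpia-1* (RNAi) Day 0 and 5 in N2 EV. No muscle, intestinal or germline marker was at 0 in any group. In N2 EV against TU3401 EV, mean summed TPM was 422 against 255 for 8 neuronal genes and 217 against 157 for 5 hypodermal genes. It was 504 against 248 for 8 embryonic genes, 3005 against 10371 for 6 yolk genes and 696 against 30615 for 159 collagen genes. In whole worms, fewer cells of a type and less RNA per cell cannot be told apart, and the part of these differences in the chaperone values was not tested.

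The DnaJ genes split into both directions. The 8 chaperone genes that were higher in N2 on every scale were all DnaJ genes, *dnj-4*, *dnj-5*, *dnj-8*, *dnj-15*, *dnj-18*, *dnj-26*, *dnj-27* and *dnj-28*, some of them named after their values were seen. *dnj-28* had 54.02, 65.8 and 65.8 TPM in N2 *rpia-1* (RNAi) Day 0, against 25.2, 24.8 and 21.3 TPM in TU3401 *rpia-1* (RNAi) WL, and 62.9, 64.8 and 61.5 TPM in N2 EV, against 24.6, 24.6 and 22.01 TPM in TU3401 EV. Its log2 change between the EV groups was 1.37 ± 0.08 (adjusted p = 3.18e-07 by limma) as TPM and 0.69 on the scale of ratios. *dnj-5*, the most abundant of them, had 294, 290 and 279 TPM in N2 EV, against 161, 158 and 129 TPM in TU3401 EV (0.95 ± 0.09, and 0.24 on the scale of ratios).

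The DnaJ genes that were lower in N2 on every scale were *dnj-20* and *dnj-24*. *dnj-20* had 130, 113 and 105 TPM in N2 *rpia-1* (RNAi) Day 0, against 326, 331 and 417 TPM in TU3401 *rpia-1* (RNAi) WL, and 120, 118 and 111 TPM in N2 EV, against 353, 296 and 365 TPM in TU3401 EV. Its log2 change between the EV groups was −1.52 ± 0.09 (adjusted p = 2.65e-07 by limma). *dnj-24* had 4.94, 5.36 and 4.49 TPM in N2 EV, against 18.8, 21.7 and 24.1 TPM in TU3401 EV (−1.92 ± 0.13). The remaining 19 DnaJ genes were not called in the same direction on all scales. Among them were the abundant cytosolic genes *dnj-12* and *dnj-19*, with 312 to 343 and 349 to 365 TPM in N2 EV, against 222 to 280 and 282 to 329 TPM in TU3401 EV.

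In the ER, the members of a pair of related genes stood in a different ratio in the strains. *dnj-20* and *dnj-27* both encode DnaJ proteins of the ER lumen, and the ratio of *dnj-20* to *dnj-27* was 5.84 ± 1.01 (SD, n = 3) in N2 *rpia-1* (RNAi) Day 0, against 47.6 ± 2.14 in TU3401 *rpia-1* (RNAi) WL, and 6.76 ± 0.799 in N2 EV, against 49.2 ± 5.43 in TU3401 EV. The ER HSP70 genes differed less and in the direction of *hsp-4*. *hsp-3* had 315, 322 and 318 TPM in N2 EV, against 493, 487 and 545 TPM in TU3401 EV, whereas *hsp-4* had 274, 274 and 284 TPM in N2 EV, against 182, 176 and 165 TPM in TU3401 EV. The ratio of *hsp-4* to *hsp-3* was 0.804 ± 0.162 in N2 *rpia-1* (RNAi) Day 0, against 0.368 ± 0.0692 in TU3401 *rpia-1* (RNAi) WL, a 2.18-fold difference, and 0.872 ± 0.0217 in N2 EV, against 0.344 ± 0.0359 in TU3401 EV, a 2.54-fold difference. As TPM, *hsp-3* was called lower and *hsp-4* higher (−0.67 and 0.67), but centred on the median level *hsp-3* had 0.02, and on the scale of ratios *hsp-4* had −0.04. Since both genes encode close relatives, reads that match both may have been split between them, and this was not tested.

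The mitochondrial pair showed a smaller shift. *hsp-6* had 547, 659 and 625 TPM in N2 *rpia-1* (RNAi) Day 0, against 454, 473 and 428 TPM in TU3401 *rpia-1* (RNAi) WL, whereas *hsp-60* had 339, 402 and 384 TPM in N2 *rpia-1* (RNAi) Day 0, against 415, 423 and 382 TPM in TU3401 *rpia-1* (RNAi) WL. The ratio of *hsp-6* to *hsp-60* was 1.63 ± 0.0119 in N2 *rpia-1* (RNAi) Day 0, against 1.11 ± 0.0159 in TU3401 *rpia-1* (RNAi) WL, and 1.61 ± 0.0499 in N2 EV, against 1.11 ± 0.0455 in TU3401 EV. Within each strain the libraries of the knockdown and of EV overlapped. The mitochondrial HSP90 gene *hsp-75* had 111 to 122 TPM in N2 EV, against 63.7 to 73.9 TPM in TU3401 EV, and was not called on the scale of ratios (0.03).

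Among the cytosolic genes, the ratio to *hsp-1* in N2 was higher for *hsp-90* and lower for *hsp-110*, each by a small margin. The ratio of *hsp-90* to *hsp-1* was 0.866 ± 0.0480 in N2 *rpia-1* (RNAi) Day 0, against 0.738 ± 0.0188 in TU3401 *rpia-1* (RNAi) WL, and 0.830 ± 0.0267 in N2 EV, against 0.727 ± 0.0220 in TU3401 EV. The ratio of *hsp-110* to *hsp-1* was 0.120 ± 0.00245 in N2 *rpia-1* (RNAi) Day 0, against 0.143 ± 0.00630 in TU3401 *rpia-1* (RNAi) WL, and 0.118 ± 0.00240 in N2 EV, against 0.140 ± 0.00679 in TU3401 EV. These are differences of 1.14-fold and 0.842-fold between the EV groups, with no overlap of the libraries in either comparison.

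**Figure D4:**
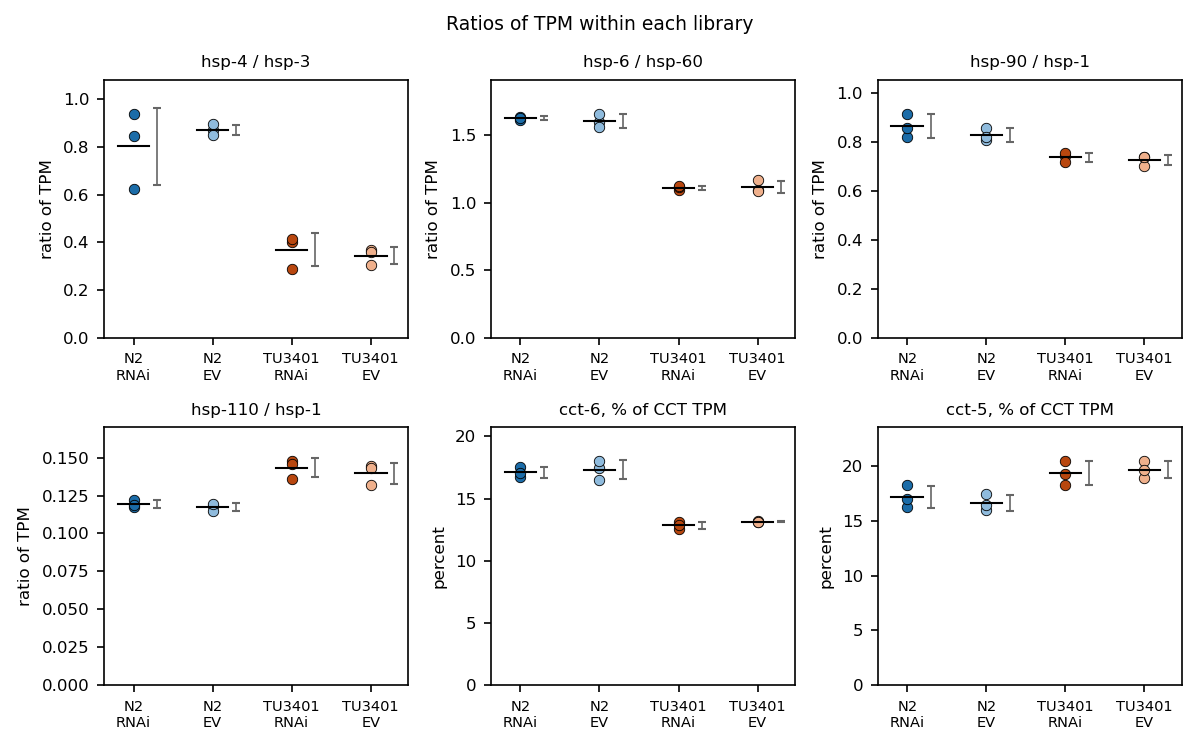
Ratios of TPM between chaperone genes, and shares of the summed TPM of the 8 CCT genes, within each library. Points are libraries, lines are group means and grey bars are ± 1 SD (n = 3). In every panel the N2 and TU3401 libraries are separated, for *cct-5* only by a very narrow margin, whereas RNAi and EV overlap within each strain.

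The CCT genes differed unequally between the strains. As TPM, 6 of 8 were called higher in N2 EV than in TU3401 EV, against 43.4% of all genes, and 4 of 8 in the knockdown libraries, against 40.9%. On the scale of ratios 0 were higher and 7 lower in both, against 59.5% of all genes lower in EV and 52.9% in the knockdown libraries. *cct-6* led, with 408, 424 and 400 TPM in N2 EV, against 256, 261 and 221 TPM in TU3401 EV, and 390, 413 and 404 TPM in N2 *rpia-1* (RNAi) Day 0, against 255, 273 and 227 TPM in TU3401 *rpia-1* (RNAi) WL. *cct-5* stood at the other end, with 374, 411 and 400 TPM in N2 EV, against 366, 408 and 331 TPM in TU3401 EV, and its groups overlapped. Accordingly, *cct-6* made 17.3% ± 0.771 (SD, n = 3) of the summed CCT TPM in N2 EV, against 13.1% ± 0.0656 in TU3401 EV, and *cct-5* made 16.7% ± 0.755 in N2 EV, against 19.7% ± 0.784 in TU3401 EV. In the knockdown libraries *cct-6* made 17.1% ± 0.422 in N2 *rpia-1* (RNAi) Day 0, against 12.9% ± 0.293 in TU3401 *rpia-1* (RNAi) WL, and *cct-5* made 17.2% ± 1.04 in N2 *rpia-1* (RNAi) Day 0, against 19.4% ± 1.08 in TU3401 *rpia-1* (RNAi) WL.

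The 5 ratios and both CCT shares were chosen after the data were seen, and each was compared in 4 contrasts, 28 tests in all. For all 7 measures the N2 and TU3401 libraries were separated in both strain contrasts. For the *cct-5* share in the knockdown libraries the margin was very narrow. It was 18.3232% in N2 *rpia-1* (RNAi) Day 0 replicate 1, against 18.3238% in TU3401 *rpia-1* (RNAi) WL replicate 2. In the strain contrasts the exact two-sided permutation p was 0.1, the smallest that 3 against 3 libraries allow, and the adjusted p was 0.2. No test could therefore pass 0.05. Between knockdown and EV of the same strain the libraries overlapped for all 7 measures.

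**Figure D5:**
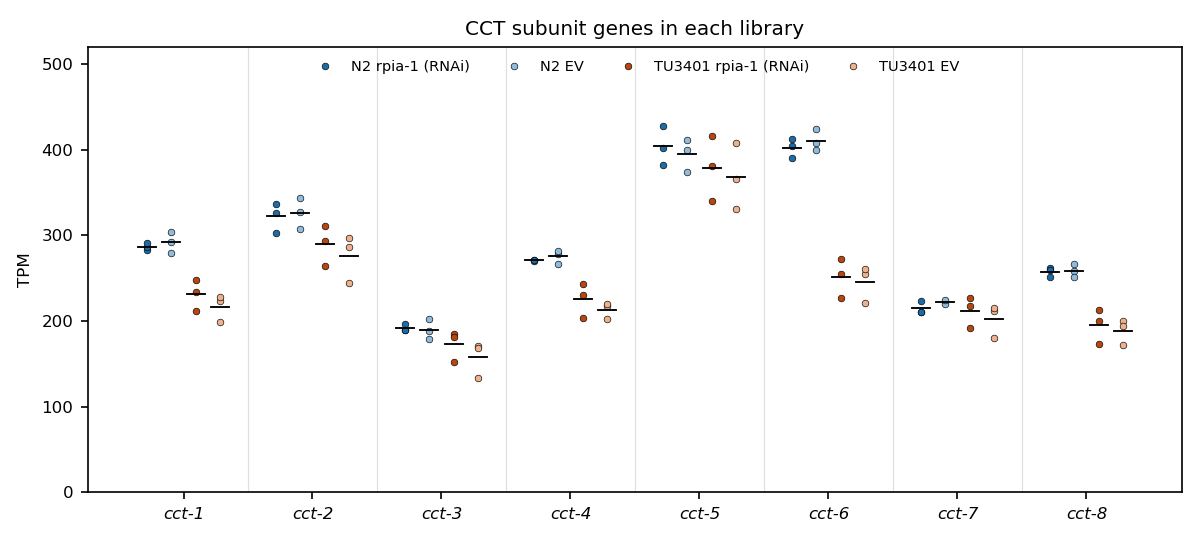
TPM of the 8 CCT subunit genes in each library, with lines at group means and colours for the groups. *cct-6* lies at 390 to 424 TPM in the N2 libraries and at 221 to 273 TPM in the TU3401 libraries, whereas *cct-5* overlaps between the strains.

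Most partner genes were called between the strains, as were 88.8% of all genes, with 43.4% higher and 45.4% lower in N2 EV as TPM. As TPM, 3 prefoldin genes of 6 were called higher and 0 lower in N2 EV than in TU3401 EV, 14 cochaperone genes of 15 higher and 1 lower, 10 ER folding genes of 14 higher and 3 lower, and 7 mitochondrial stress genes of 9 higher and 1 lower. On the scale of ratios these counts were 0 and 4, 5 and 6, 7 and 5, and 0 and 4, against 24.8% higher and 59.5% lower among all genes. The gene *chn-1*, the ubiquitin ligase CHIP that binds HSP70 and HSP90, had 152, 142 and 141 TPM in N2 EV, against 58.1, 65.2 and 55.3 TPM in TU3401 EV (1.28 ± 0.08, adjusted p = 4.53e-07 by limma). *pdi-2*, a protein disulfide isomerase of the ER, had 218, 231 and 251 TPM in N2 EV, against 593, 563 and 632 TPM in TU3401 EV (−1.35 ± 0.07, adjusted p = 2.15e-07). Like *hsp-3*, *pdi-2* was also high in N2 *rpia-1* (RNAi) Day 0 replicate 1, at 433 TPM against 205 and 212 TPM in the other knockdown libraries of N2.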

How the data were processed

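RNA of whole worms was measured in 12 libraries, 4 groups of 3 collected independently per the methods. The submitters' processing notes name FastQC 0.11.9, MultiQC 1.12, Trimmomatic 0.36, HISAT2 2.2.1 and featureCounts 1.6.2. The genome build and counting by strand are not given in the sources used here. The deposited values that the authors call TPM were treated as a linear signal, since their sums exceed the fixed sum of TPM, and the deposited FPKM values are proportional to them within each library. Read counts were not used, so depth in reads cannot be stated and no counting interval is given.

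Comparisons were fitted by limma 3.58.1 (R 4.3.3, empirical Bayes, trended variance) on log2(TPM + 1). Genes entered if the libraries compared averaged 1 TPM or more, with Benjamini-Hochberg adjustment over all genes tested and a threshold of 0.05. This scale understates changes of low genes. Ratios within libraries were tested by exact permutation. The method was tested on simulated data, but the outcome is not given here. All 98 genes looked up were found in Ensembl release 115 of WBcel235. Figures were drawn with Python 3.11.15 and matplotlib 3.10.9.

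The members and the lists of partner and marker genes were chosen with earlier results of these data known. Named are the *hsp-* and *cct-* genes, the 6 most abundant *dnj-* genes, in each comparison the 3 members with the smallest p in each direction, and up to 3 genes per partner list, except for genes said to be named later. The alternatives were FPKM, pseudocounts of 0.1 and 5, no minimum or 5 TPM, other scales, no trend, all 12 libraries in 1 fit, a replicate block, and leaving out each library in turn. No sequences are printed, as no sequence tables were used here.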

Additional observations from a re-analysis of the deposited data

How the results depend on the processing

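In both knockdown comparisons and in their difference, 0 chaperone genes were called under every alternative run. In FPKM, N2 EV replicate 2 and TU3401 EV replicate 3 have another factor to TPM than the other libraries (1.39 and 1.21, against 1.70 to 1.93). With FPKM, the median log2 change of the chaperone genes was −0.15 in N2 and −0.12 in TU3401. That of all genes moved to −0.13 and −0.15. The sign turned for 11 of 49 chaperone genes in N2 and for 43 of 52 in TU3401. These included *dnj-9* in N2 (−0.0503) and *dnj-2* (−0.0285), *cct-3* (−0.0293) and *dnj-25* (−0.0116) in TU3401, which turned negative. The median of the difference between the knockdown changes was −0.17 when centred on the median level. Without 1 library at a time it was −0.13 to 0.0031, *dnj-27* in N2 was −0.0011 to 0.33 and *hsp-25* in TU3401 was −0.28 to 0.10. Without N2 *rpia-1* (RNAi) Day 0 replicate 1, the sign turned for 26 of 50 chaperone genes in N2. Without TU3401 EV replicate 3, the sign turned for 25 of 52 in TU3401.

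Between N2 and TU3401, FPKM gave 18 higher chaperone genes of 52 in EV, against 4196 of 12265 genes tested, with a median of 0.25. In the knockdown libraries FPKM gave a median of 0.21, and −0.0539 for *hsp-1*. A minimum of 5 TPM gave a median of 0.40 in the knockdown libraries. Centring on the median level gave medians of 1.10 in EV and 0.93 in the knockdown libraries, and turned *hsp-110* (0.62 in EV, 0.42 in knockdown), *hsp-3* (0.0186, 0.0345), *hsp-60* (0.65, 0.49) and *hsp-12.6* (0.20, 0.55) to positive in both, and *hsp-43* (0.36) in EV. The shift by the median ratio gave 9 higher and 32 lower with a median of −0.29 in EV, and 8 higher and 29 lower with a median of −0.34 in the knockdown libraries. It turned *hsp-1* (−0.53 in EV, −0.60 in knockdown), *hsp-90* (−0.34, −0.37), *hsp-4* (−0.0362, −0.12) and *hsp-6* (−0.22, −0.24) to negative in both, *hsp-43* (−0.52) in the knockdown libraries, and 21 and 27 chaperone genes in all. Without 1 library at a time, *hsp-43* was −0.50 to 0.0049 in EV and −0.35 to 0.59 in knockdown, *hsp-60* −0.10 to 0.0107 in EV and *hsp-12.6* −0.23 to 0.0325 in knockdown. The causes were not tested.

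The replicate numbers were not taken as pairs, since the labels state no shared batch and not every pair correlated above 0.1 across genes. The library names do carry the same non-consecutive numbers in knockdown and EV of each strain. The correlation of the deviations of same-numbered libraries across genes was −0.44, 0.04 and −0.41 in N2 and 0.05, 0.44 and 0.42 in TU3401, where replicates 2 and 3 but not 1 correlated best with their own number. Across the chaperone genes alone it was −0.07, 0.07 and 0.06 in N2 and 0.60, 0.76 and 0.86 in TU3401. Replicate 2 of the knockdown groups of N2 and TU3401 also reached 0.76 across the chaperone genes, so pairing in TU3401 is not settled. With a replicate block the chaperone calls in EV were 35 higher and 9 lower, against 5779 and 6065 of 13348 genes. In the knockdown libraries they were 30 and 9, against 5467 and 5329 of 13412 genes. In both knockdown comparisons 0 chaperone genes were called.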
